A study of Mus musculus with 24 samples.

Results

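The 10 genes described here encode proteins that coat, build, enlarge or break down lipid droplets: Plin2, Plin4, Plin5, Cidea, Cideb, Cidec, G0s2, Pnpla2, Fitm1 and Fitm2. They were taken by gene symbol from 24 deposited tables of expression values in mouse liver, 10 of 24339 genes, and each had 1 entry in every table. Of the 10 genes, 8 reached 1 FPKM (fragments per kilobase of transcript, scaled to the size of the library) in at least 3 of the 24 libraries and entered the tests, among 12282 tested genes. Plin4 and Cidea reached 1 FPKM in 1 library each and are described by their values.

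The libraries came from livers of C57BL/6 mice in 8 groups of 3. Mice of the hCAR-TG genotype, a knock-in of the human constitutive androstane receptor (CAR), had received CITCO or corn oil, and wild type (WT) mice had received TCPOBOP or corn oil, each at day 60 and at day 5 after birth. CAR is a nuclear receptor of hepatocytes that responds to drugs and other foreign compounds. TCPOBOP is an agonist of mouse CAR and CITCO an agonist of human CAR, so receptor and ligand differ together between the genotypes and their contributions cannot be told apart. The labels give no dose and no interval between dosing and collection, and they do not say whether the 3 libraries of a group came from separate animals. The p-values therefore measure the spread between these libraries, which may be technical.

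A lipid droplet is a core of triglyceride and cholesteryl ester inside a single layer of phospholipid. Droplets are built at the endoplasmic reticulum, where the FITM proteins promote the packaging of newly made triglyceride. Perilipins coat the surface and restrict the access of lipases, and proteins of the CIDE family move lipid between droplets or onto lipoprotein particles. Adipose triglyceride lipase, encoded by Pnpla2, starts the release of fatty acids and is held in check by its inhibitor G0s2. Plin2, Plin5, Cidec and G0s2 are among the known targets of the fatty acid receptor PPARa in mouse liver.

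The libraries held between 451546 and 502499 FPKM in all, and their relative depth, read from the widths of the deposited intervals, ran from 0.863 to 1.103. Read counts were not used here, so no counting interval is given. All 7 hepatocyte marker genes found were expressed in every group. Cyp2b10, the classic target gene of CAR, rose with both compounds at both ages. The lowest log2 change was 2.44 ± 0.26 (± SE, limma adjusted p = 3.11e-06, CITCO at day 60). Under corn oil at day 60, mean Cyp2b10 was already 225 FPKM in hCAR-TG liver, against 12.9 FPKM in WT liver. At day 5 the corn oil means were 2.81 FPKM in hCAR-TG and 4.26 FPKM in WT liver. The corn oil group of hCAR-TG day 60 is the reference for CITCO at that age. It also enters the corn oil comparisons of genotype and age. Adipocyte and pancreatic transcripts were high in single libraries, while intestine markers differed between whole groups, as given below. The adipocyte markers Adipoq and Plin1 stood at 4.83 and 1.30 FPKM in hCAR-TG corn oil replicate 1 at day 60 and at 0.967 and 0.841 FPKM in WT corn oil replicate 1 at day 5, against at most 0.499 and 0.235 FPKM in the other 22 libraries. Pancreatic acinar transcripts summed to between 225 and 317 FPKM in 3 libraries of day 5 (hCAR-TG CITCO replicate 1, WT TCPOBOP replicate 2 and WT corn oil replicate 2) and to at most 33.6 FPKM in the other 21. hCAR-TG corn oil replicate 3 at day 5 deviated most from its group mean, with a root mean square deviation of 0.26 on the log2 scale, against 0.0976 to 0.18 in the other libraries.

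Plin2 and Cideb had the highest levels, at 109 to 231 FPKM and 120.0 to 173 FPKM over the 24 libraries. G0s2 ran from 5.66 to 97.1 FPKM, Pnpla2 from 12.5 to 21.9 FPKM, Plin5 from 5.68 to 20.5 FPKM, Fitm1 from 1.70 to 24.7 FPKM and Fitm2 from 8.73 to 16.6 FPKM. Cidec stayed between 0.171 and 4.03 FPKM and Plin4 between 0.103 and 1.33 FPKM, and Cidea was above 0 in 12 of the 24 libraries. Ranked by group mean, Plin2 ran from 208 FPKM in WT day 60 corn oil to 117 FPKM in hCAR-TG day 60 CITCO, and G0s2 from 87.2 FPKM in hCAR-TG day 5 CITCO to 9.77 FPKM in hCAR-TG day 60 CITCO. Neighbours in these orders often overlapped: the G0s2 values of hCAR-TG CITCO and hCAR-TG corn oil at day 5 did, as did those of WT corn oil at day 60 and at day 5.

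**Figure D1:**
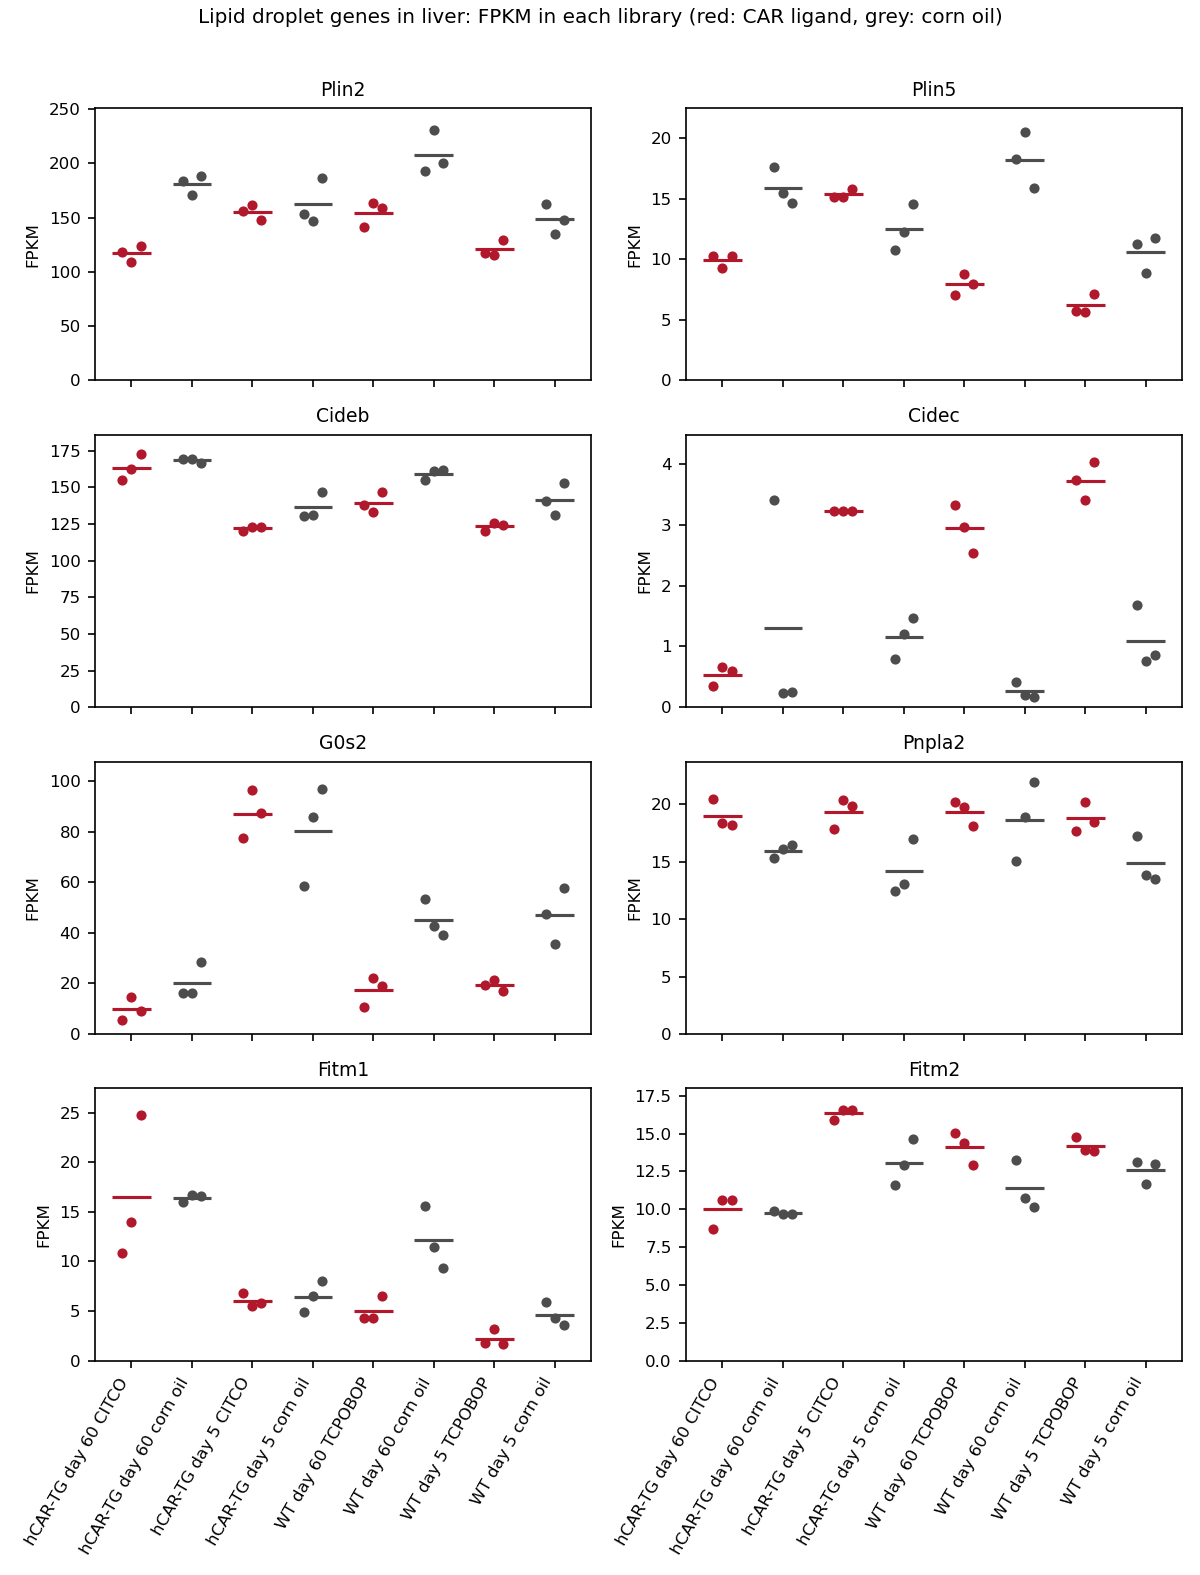
FPKM of the 8 tested droplet genes in each of the 24 libraries (points) with the mean of each group of 3 (bar), for the 8 groups along the x axis, CAR ligand in red and corn oil in grey. Plin5 with TCPOBOP lies at 5.68 to 8.80 FPKM, below every corn oil library of the same age, and Cidec with TCPOBOP lies at 2.53 to 4.03 FPKM, above every WT corn oil library.

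The stretches upstream of 5 of these genes are shown because these genes had the largest changes with TCPOBOP at day 60, 4 of them downward and Cidec upward. The sequences are RefSeq's, from its table of mouse assembly GRCm38.p6, and run 5′ to 3′ from 250 bases before to 50 bases after the annotated start of the gene. Plin2 lies on the minus strand (window chr4:86670010-86670309), as do Plin5 (chr17:56117499-56117798), G0s2 (chr1:193273139-193273438) and Cidec (chr6:113435711-113436010), and Fitm1 lies on the plus strand (chr14:55575424-55575723). Capitals mark AGGTCA, the core element bound by many nuclear receptors, and CCAAT, a promoter box, each on either strand, so that TGACCT and ATTGG are their reverse complements.
Plin2: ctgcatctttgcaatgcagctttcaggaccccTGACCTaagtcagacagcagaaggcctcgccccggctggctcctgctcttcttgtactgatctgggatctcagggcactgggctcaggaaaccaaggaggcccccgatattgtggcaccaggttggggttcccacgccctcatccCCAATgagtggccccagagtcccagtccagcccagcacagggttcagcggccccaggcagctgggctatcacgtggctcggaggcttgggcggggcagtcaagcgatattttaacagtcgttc
Plin5: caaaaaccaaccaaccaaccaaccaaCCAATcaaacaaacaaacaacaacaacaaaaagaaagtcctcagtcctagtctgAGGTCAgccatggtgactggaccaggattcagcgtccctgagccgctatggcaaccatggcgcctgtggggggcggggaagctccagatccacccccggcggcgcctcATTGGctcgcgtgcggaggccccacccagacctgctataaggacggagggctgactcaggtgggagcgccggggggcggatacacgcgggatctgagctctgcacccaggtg
G0s2: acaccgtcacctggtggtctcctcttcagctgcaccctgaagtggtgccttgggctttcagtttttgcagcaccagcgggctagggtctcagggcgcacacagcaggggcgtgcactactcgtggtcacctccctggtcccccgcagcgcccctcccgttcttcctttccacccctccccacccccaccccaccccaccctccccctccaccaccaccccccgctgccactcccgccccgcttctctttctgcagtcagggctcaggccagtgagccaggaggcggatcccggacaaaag
Fitm1: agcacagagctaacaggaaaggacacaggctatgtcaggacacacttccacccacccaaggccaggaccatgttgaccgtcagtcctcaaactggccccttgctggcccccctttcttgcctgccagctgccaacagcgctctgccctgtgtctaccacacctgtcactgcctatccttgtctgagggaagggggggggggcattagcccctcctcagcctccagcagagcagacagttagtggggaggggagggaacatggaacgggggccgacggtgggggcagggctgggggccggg
Cidec: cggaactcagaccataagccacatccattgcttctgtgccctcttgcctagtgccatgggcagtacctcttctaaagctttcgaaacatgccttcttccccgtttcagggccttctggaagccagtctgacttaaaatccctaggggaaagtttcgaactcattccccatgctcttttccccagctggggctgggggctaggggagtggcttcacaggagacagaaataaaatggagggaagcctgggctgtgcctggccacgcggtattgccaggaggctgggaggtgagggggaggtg
Of the 9 droplet genes with a window in that table, 2 held AGGTCA: Plin2 at position -218 from the start and Plin5 at -170. The 9 genes had 11 windows, since Plin5 and Cidec each had a second annotated start, not shown. The second Plin5 window held AGGTCA at position 13. Those letters occur in 16.3% of all 32841 windows of that length. CCAAT was found in the windows of Plin2, Plin4 and Plin5 and in 37.4% of all windows, and TATAAA in that of Cideb and in 13.6%. Receptor pairs bind direct repeats of this element, PPARa with 1 base between the copies and CAR often with 4. With the element written as AGGNCA, where N is any base, a repeat spaced by 1 base was in 0.381% of all windows, a repeat spaced by 4 bases in 0.253%, and neither was in any of the 9. These are matches of letters within these windows and no more.

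With both ligands, transcripts of droplet coat proteins and of the lipase inhibitor were lower at day 60, and with TCPOBOP also at day 5. In WT liver with TCPOBOP, Plin2, Plin5, Cideb, G0s2 and Fitm1 fell at both ages and Cidec rose at both ages. In hCAR-TG liver with CITCO, Plin2, Plin5 and G0s2 fell at day 60, and Cidec, Pnpla2 and Fitm2 rose at day 5. The calls of these 3 rises were lost in 6, 3 and 3 of the 6 fits that left out 1 library. Some of the other calls were also lost in such fits, as given below.

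These counts are read against the share of all 12282 genes called in the same comparison by limma at an adjusted p under 0.05. With TCPOBOP at day 60, 7 of the 8 droplet genes were called, 2 higher and 5 lower, where 47.2% of all genes were called, 31.4% higher and 15.8% lower. With TCPOBOP at day 5, 7 of 8 were again called, 2 higher and 5 lower, where 35.9% of all genes were called, 24.6% higher and 11.3% lower. With CITCO at day 60, limma called 3 of 8 lower and 0 higher (0 higher also at an unadjusted p under 0.05), where 8.37% of all genes were called, 4.4% higher and 3.97% lower. With CITCO at day 5, limma called 3 of 8 higher and 0 lower (1 lower at an unadjusted p under 0.05), where 17.1% of all genes were called, 8.27% higher and 8.82% lower. The median log2 change of the 8 genes with TCPOBOP was -0.31 at day 60 and -0.24 at day 5, against 0.06 and 0.04 over all tested genes. With CITCO it was -0.19 at day 60 and 0.21 at day 5, against -0.00070 and 0.0080 over all tested genes. Rescaling the libraries to a common median ratio moved the split of calls over all genes with TCPOBOP, to 3069 higher and 2945 lower at day 60 (3855 and 1946 as deposited) and to 2345 higher and 2044 lower at day 5 (3022 and 1386 as deposited). It reversed none of the called changes of the droplet genes.

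**Figure D2:**
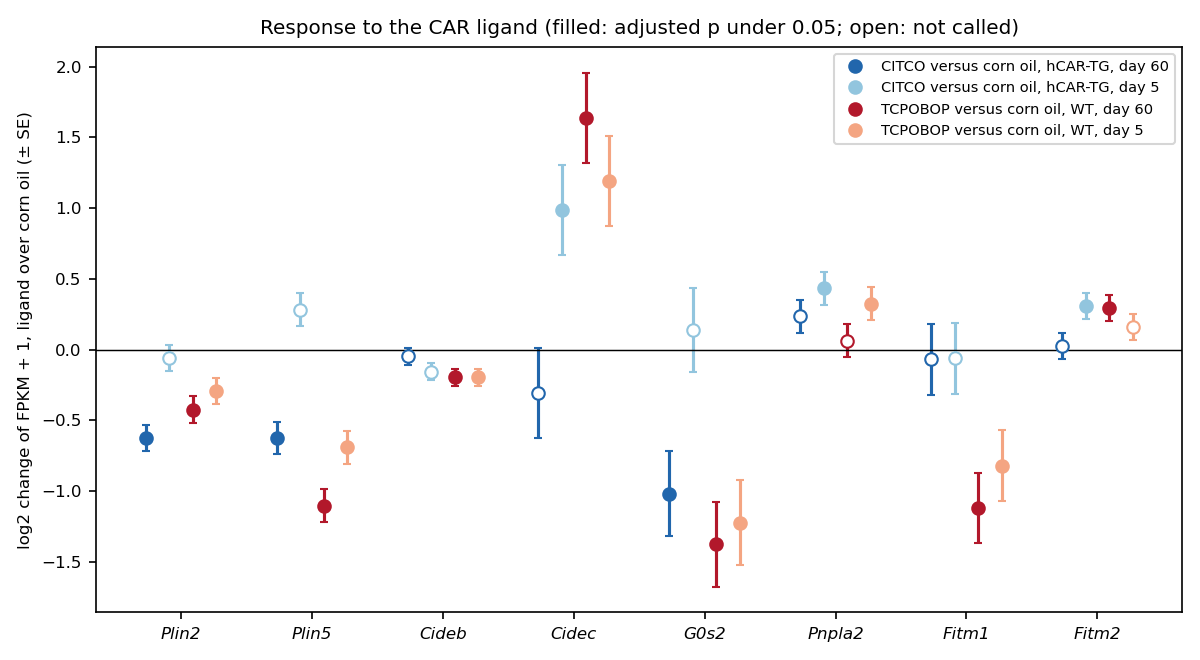
Log2 change of FPKM + 1, ligand over corn oil, with its standard error for 8 droplet genes (x axis) in the 4 ligand comparisons (colours), each of 3 against 3 libraries, filled where the limma adjusted p was under 0.05. Plin5 is at -0.62, -1.10 and -0.69 in 3 comparisons and at 0.28, not called, with CITCO at day 5, and G0s2 shows the same pattern of signs.

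Plin5, the perilipin that ties droplets to mitochondria in tissues that burn fat, fell with TCPOBOP at both ages. In WT liver at day 60 it was at 7.06, 8.80 and 7.99 FPKM with TCPOBOP, against 18.3, 20.5 and 15.9 FPKM with corn oil. Plin5 at day 5 was at 5.77, 5.68 and 7.13 FPKM with TCPOBOP, against 11.2, 8.84 and 11.8 FPKM with corn oil. The groups did not overlap at either age. The log2 change was -1.10 ± 0.12 (± SE, limma adjusted p = 8.33e-08) at day 60 and -0.69 ± 0.12 (limma adjusted p = 7.67e-05) at day 5. In hCAR-TG liver at day 60 Plin5 was at 10.3, 9.32 and 10.3 FPKM with CITCO, against 17.6, 15.5 and 14.7 FPKM with corn oil, again without overlap (-0.62 ± 0.12, limma adjusted p = 0.00145). Every CITCO library of day 5, at 15.1, 15.2 and 15.8 FPKM, lay above the corn oil libraries at 10.8, 12.3 and 14.6 FPKM, but the difference was not called (0.28 ± 0.12, limma adjusted p = 0.0928). Without corn oil replicate 3, the library that deviated most from its group, it was called (0.39, limma adjusted p = 0.0313). The 3 falls were called under every alternative that could be fitted for them.

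Plin2, the main perilipin of hepatocytes and the most abundant droplet coat transcript here, fell in those 3 comparisons too. With TCPOBOP at day 60 it was at 142, 163 and 159 FPKM, against 193, 231 and 200.3 FPKM with corn oil in WT liver (log2 change -0.42 ± 0.09, ± SE, limma adjusted p = 6.91e-04). Plin2 at day 5 was at 117, 116 and 129.6 FPKM with TCPOBOP, against 163, 135 and 148 FPKM with corn oil (-0.29 ± 0.09, limma adjusted p = 0.0168). With CITCO at day 60 it was at 118, 109 and 124 FPKM, against 184, 171 and 189 FPKM with corn oil in hCAR-TG liver (-0.62 ± 0.09, limma adjusted p = 1.64e-04). None of these 3 pairs of groups overlapped. With CITCO at day 5 the groups did overlap, at 156, 162 and 148 FPKM with CITCO, against 153, 147 and 187 FPKM with corn oil (-0.06 ± 0.09, limma adjusted p = 0.705). The call at day 5 in WT liver was lost without corn oil replicate 1, which held adipocyte transcripts, and without TCPOBOP replicate 1 or 2, with log2 changes from -0.36 to -0.23 and limma adjusted p from 0.00972 to 0.101 over the 6 fits that left out 1 library.

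Plin4, a perilipin best known from adipocytes and muscle, was low in liver. In WT liver at day 60 it was at 0.141, 0.129 and 0.129 FPKM with TCPOBOP, against 0.537, 0.813 and 0.624 FPKM with corn oil. WT livers of day 5 had 0.116, 0.164 and 0.103 FPKM of Plin4 with TCPOBOP, against 0.412, 0.272 and 0.262 FPKM with corn oil. Both pairs were apart without overlap. In a fit of all 19722 expressed genes with a pseudocount of 0.1, chosen after the values were seen, the log2 change was -1.69 ± 0.32 (limma adjusted p = 2.77e-04) at day 60 and -0.86 ± 0.32 (limma adjusted p = 0.0582) at day 5. With the pseudocount of 1 and no filter the change was -0.55 ± 0.14 (limma adjusted p = 0.00421) at day 60 and -0.22 ± 0.14 (limma adjusted p = 0.285) at day 5. In hCAR-TG liver Plin4 was at 0.266, 0.518 and 0.302 FPKM with CITCO at day 60, against 1.33, 0.421 and 0.291 FPKM with corn oil, where the first corn oil library is the one with adipocyte transcripts. At day 5 it was at 0.430, 0.370 and 0.392 FPKM with CITCO, against 0.266, 0.360 and 0.376 FPKM with corn oil.

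Marker genes of other liver cells and of hepatocytes are set beside these values. The 8 markers of hepatic stellate cells, which store vitamin A in droplets of their own, were all detected and summed to 72.4 to 75.3 FPKM with TCPOBOP at day 60, against 96.1 to 113 FPKM with corn oil, and to 107 to 129 FPKM with TCPOBOP at day 5, against 180.3 to 189 FPKM with corn oil. With CITCO they summed to 78.7 to 90.4 FPKM at day 60, against 102 to 124 FPKM with corn oil, and to 171 to 178 FPKM at day 5, against 152 to 179 FPKM with corn oil. The summed level was lower, without overlap, in the 3 comparisons in which Plin2 and Plin5 fell. By limma, 4 of the 8 stellate markers fell and 1 rose with TCPOBOP at day 60, 5 fell with TCPOBOP at day 5, 4 fell with CITCO at day 60 and 2 fell with CITCO at day 5, where 15.8%, 11.3%, 3.97% and 8.82% of all genes fell. The 7 hepatocyte markers summed lower with either ligand at both ages, without overlap. With TCPOBOP they were at 24382 to 26621 FPKM at day 60, against 42724 to 52291 FPKM with corn oil, and at 72370 to 77088 FPKM at day 5, against 99608 to 106450 FPKM with corn oil. With CITCO they were at 41063 to 46476 FPKM at day 60, against 48285 to 55850 FPKM with corn oil, and at 80358 to 83280 FPKM at day 5, against 88253 to 96796 FPKM with corn oil. By limma, 6 of these 7 fell with TCPOBOP at day 60 and 3 at day 5, where 15.8% and 11.3% of all genes fell. With CITCO, 2 fell at day 60 and 1 at day 5, where 3.97% and 8.82% of all genes fell. At day 5, 2 rose with TCPOBOP and 1 with CITCO, where 24.6% and 8.27% of all genes rose. Of 11 tested clock genes, 3 rose and 3 fell with TCPOBOP at day 60, where 31.4% of all genes rose and 15.8% fell, and limma called 0 with TCPOBOP at day 5 (2 at an unadjusted p under 0.05). With CITCO, 4 rose and 2 fell at day 60, where 4.4% of all genes rose and 3.97% fell, and 2 rose and 2 fell at day 5, where 8.27% of all genes rose and 8.82% fell. At day 5 with CITCO, endothelial markers summed to 119 to 129 FPKM, against 151 to 171 FPKM with corn oil, and intestine markers to 53.2 to 61.5 FPKM, against 71.0 to 95.1 FPKM with corn oil, both without overlap. At day 5 with TCPOBOP, Kupffer cell markers summed to 546 to 669 FPKM, against 442 to 471 FPKM with corn oil. Endothelial markers were also lower with TCPOBOP at day 60 (97.1 to 101, against 117 to 131 FPKM). Erythroid markers were lower with TCPOBOP at day 60 (422 to 816, against 844 to 1165 FPKM) and CITCO at day 5 (4883 to 5812, against 6651 to 8714 FPKM). Intestine sums were apart from corn oil elsewhere too, higher with TCPOBOP at day 5 and lower at day 60 with either ligand. By limma, 4 of 5 tested intestine markers fell with CITCO at day 5 (median log2 change -2.67), where 8.82% of all genes fell. With TCPOBOP, 1 of 5 rose at day 5 and 1 of 5 fell at day 60, where 24.6% of all genes rose and 15.8% fell. The part of these genes in the changes of the droplet genes was not tested. In bulk liver RNA, fewer cells of a type and less RNA per cell cannot be told apart.

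Cidec (also called Fsp27), which enlarges droplets by passing lipid from smaller to larger ones, rose with TCPOBOP. In WT liver at day 60 it was at 3.32, 2.97 and 2.53 FPKM with TCPOBOP, against 0.413, 0.206 and 0.171 FPKM with corn oil. Cidec at day 5 was at 3.73, 3.40 and 4.03 FPKM with TCPOBOP, against 1.67, 0.764 and 0.849 FPKM with corn oil. All TCPOBOP libraries lay above all WT corn oil libraries of either age. On the log2(FPKM + 1) scale, which understates the change of a gene this low, the rise was 1.64 ± 0.32 (± SE, limma adjusted p = 2.81e-04) at day 60 and 1.20 ± 0.32 (limma adjusted p = 0.00627) at day 5. The call at day 5 was lost without the 3 libraries with pancreatic transcripts (1.13, limma adjusted p = 0.0584).

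With CITCO, Cidec was higher in newborns and could not be called in adults. The hCAR-TG livers of day 5 had 3.23, 3.23 and 3.22 FPKM of Cidec with CITCO, against 0.795, 1.20 and 1.46 FPKM with corn oil, without overlap (log2 change 0.99 ± 0.32, limma adjusted p = 0.0406). That call was lost in each of the 6 fits that left out 1 library, at log2 changes from 0.86 to 1.09 and limma adjusted p from 0.0638 to 0.0992. In hCAR-TG liver at day 60 Cidec was at 0.347, 0.657 and 0.592 FPKM with CITCO, against 3.41, 0.225 and 0.246 FPKM with corn oil (-0.31 ± 0.32, limma adjusted p = 0.672). The high value of 3.41 FPKM was in corn oil replicate 1, the library with the most adipocyte transcripts. Without that library and WT corn oil replicate 1 of day 5, all CITCO values were above the 2 remaining corn oil values, and the log2 change turned to 0.30 (limma adjusted p = 0.178).

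In 2 corn oil libraries, some adipocyte markers and some droplet genes known from adipocytes were high. The 9 adipocyte markers, Cidea among them, summed to 46.8 FPKM in hCAR-TG corn oil replicate 1 at day 60 and to 12.9 FPKM in WT corn oil replicate 1 at day 5, against 3.06 to 8.39 FPKM in the other 22 libraries, where Lipe made up 2.81 to 5.73 FPKM and Adipoq and Plin1 had medians of 0. Cidec (3.41 FPKM) and Plin4 (1.33 FPKM) had their highest corn oil values in the first of these libraries. Cidea, a CIDE protein of brown fat, was listed at 0 in the first and had its highest value in the second, at 1.24 FPKM, and at most 0.196 FPKM in the others. The marker Ucp1 was likewise at 0 in the first and at 2.50 FPKM in the second, against at most 0.0760 FPKM in the others. Not all markers stood out in the second. Retn (0.0571 FPKM) and Cfd (2.20 FPKM) lay below the highest of the other 22 libraries (0.649 and 3.41 FPKM), and Lep was at 0. Plin4 was at 0.412 FPKM in the second, below the WT corn oil libraries of day 60. Cidea was listed at 0 in all 3 libraries of hCAR-TG CITCO at day 60. In hCAR-TG liver at day 5 it was at 0.0733, 0.196 and 0.0870 FPKM with CITCO, against 0, 0.118 and 0 FPKM with corn oil. The highest of the 22 other libraries was hCAR-TG CITCO replicate 2 at day 60, with Adipoq at 0.499 FPKM and Plin4 at 0.518 FPKM.

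**Figure D3:**
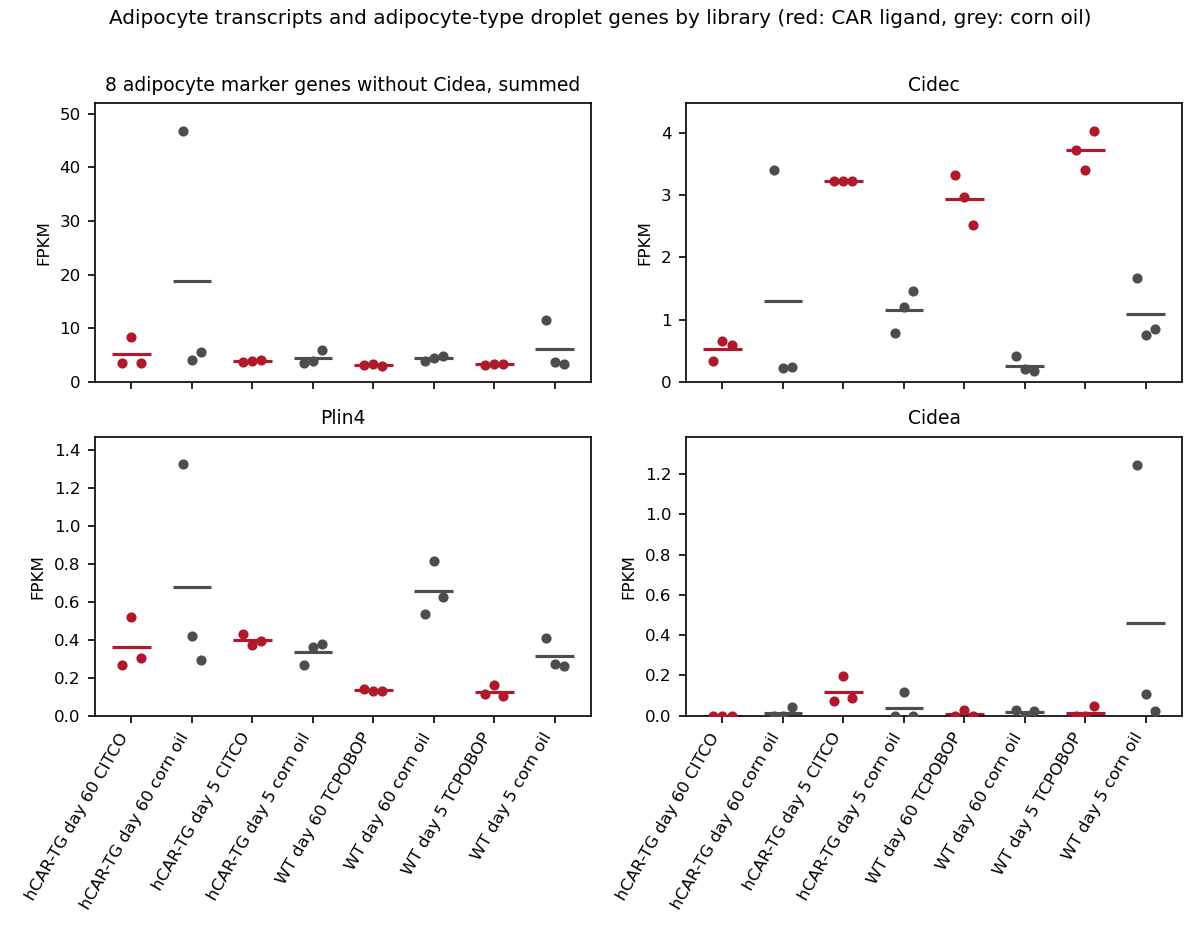
Summed FPKM of 8 adipocyte markers without Cidea, and FPKM of Cidec, Plin4 and Cidea, in each library (points) with group means (bars), for the 8 groups along the x axis, CAR ligand in red and corn oil in grey. One hCAR-TG day 60 corn oil library stands out at 46.8 FPKM of adipocyte markers, 3.41 FPKM of Cidec and 1.33 FPKM of Plin4, and 1 WT day 5 corn oil library at 1.24 FPKM of Cidea.

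Cideb, the CIDE protein of hepatocytes, which loads lipid onto very low density lipoprotein, had small changes. The WT livers of day 60 had 138, 133 and 147 FPKM of Cideb with TCPOBOP, against 155, 161 and 162 FPKM with corn oil (log2 change -0.19 ± 0.06, limma adjusted p = 0.0119). At day 5 it was at 120.0, 125 and 124 FPKM with TCPOBOP, against 141, 131 and 153 FPKM with corn oil (-0.19 ± 0.06, limma adjusted p = 0.0165). The groups did not overlap at either age. With CITCO the values were 155, 162 and 173 FPKM at day 60, against 169, 169 and 167 FPKM with corn oil (-0.05 ± 0.06, limma adjusted p = 0.762), and 120.0, 123 and 123 FPKM at day 5, against 130.4, 131 and 147 FPKM with corn oil (-0.16 ± 0.06, limma adjusted p = 0.0792). Over the 6 fits that left out 1 library, the call at day 60 was lost without TCPOBOP replicate 2 (limma adjusted p from 0.00777 to 0.0638) and the call at day 5 without TCPOBOP replicate 1 or corn oil replicate 3 (0.00566 to 0.0938). The locus (chr14:55754055-55758424, mm10) shares 1580 bases with Nop9, at 4.33 to 6.13 FPKM, so that some reads may belong to either.

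G0s2, the inhibitor of adipose triglyceride lipase, had the largest falls of the tested droplet genes with TCPOBOP. In WT liver at day 60 it was at 10.8, 22.3 and 19.2 FPKM with TCPOBOP, against 53.5, 42.9 and 39.4 FPKM with corn oil. The values at day 5 were 19.4, 21.5 and 16.9 FPKM with TCPOBOP, against 47.6, 35.6 and 57.7 FPKM with corn oil. Neither pair of groups overlapped. The log2 change was -1.38 ± 0.30 (± SE, limma adjusted p = 8.55e-04) at day 60 and -1.22 ± 0.30 (limma adjusted p = 0.00351) at day 5, and both were called in each fit that left out 1 library. The hCAR-TG livers of day 60 had 5.66, 14.5 and 9.14 FPKM of G0s2 with CITCO, against 16.3, 16.1 and 28.3 FPKM with corn oil, without overlap (-1.02 ± 0.30, limma adjusted p = 0.0418). That call was lost without CITCO replicate 1 or 3 and without corn oil replicate 1, 2 or 3, at log2 changes from -1.32 to -0.71 and limma adjusted p from 0.0122 to 0.216 over the 6 fits. At day 5 G0s2 was at 77.5, 96.7 and 87.5 FPKM with CITCO, against 58.5, 85.9 and 97.1 FPKM with corn oil, and the groups overlapped (0.14 ± 0.30, limma adjusted p = 0.783).

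Pnpla2, the lipase itself, rose at day 5 with either ligand. The WT livers of day 60 had 20.2, 19.7 and 18.1 FPKM of Pnpla2 with TCPOBOP, against 15.1, 18.9 and 21.9 FPKM with corn oil, with overlap (log2 change 0.06 ± 0.12, limma adjusted p = 0.698). Pnpla2 at day 5 was at 17.7, 20.3 and 18.4 FPKM with TCPOBOP, against 17.3, 13.8 and 13.5 FPKM with corn oil (0.33 ± 0.12, limma adjusted p = 0.0336), a call lost after median-ratio rescaling (0.26, limma adjusted p = 0.111) and without TCPOBOP replicate 2 or 3 or corn oil replicate 2 or 3 (0.27 to 0.43, limma adjusted p from 0.0112 to 0.124 over the 6 fits). In hCAR-TG liver it was at 20.5, 18.4 and 18.2 FPKM with CITCO at day 60, against 15.4, 16.2 and 16.4 FPKM with corn oil, apart but not called (0.24 ± 0.12, limma adjusted p = 0.256). At day 5 it was at 17.9, 20.4 and 19.9 FPKM with CITCO, against 12.5, 13.1 and 17.0 FPKM with corn oil (0.43 ± 0.12, limma adjusted p = 0.0146). Without CITCO replicate 2 or 3 or corn oil replicate 1 this call was lost (0.35 to 0.56, limma adjusted p from 0.0019 to 0.0645 over the 6 fits).

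The inhibitor can be set against the lipase, since FPKM are per length. The ratio of G0s2 to Pnpla2 was 0.534 to 1.13 with TCPOBOP at day 60, against 1.80 to 3.55 with corn oil, and 0.915 to 1.10 with TCPOBOP at day 5, against 2.57 to 4.27 with corn oil. In hCAR-TG liver it was 0.276 to 0.790 with CITCO at day 60, against 0.999 to 1.72 with corn oil, and 4.33 to 4.75 with CITCO at day 5, against 4.70 to 6.56 with corn oil. The groups were apart in the first 3 of these pairs and overlapped in the last. These are ratios of transcripts, with no test of their own, and say nothing of the proteins.

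**Figure D4:**
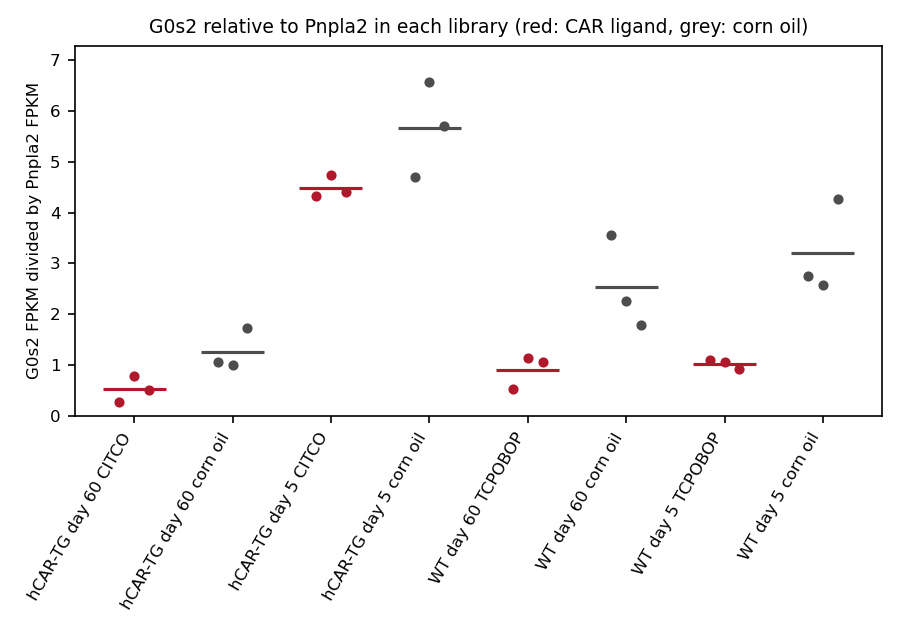
G0s2 FPKM divided by Pnpla2 FPKM in each library (points) with group means (bars), for the 8 groups along the x axis, CAR ligand in red and corn oil in grey. The ratio lies at 0.276 to 1.13 in the 9 libraries of the ligand groups other than CITCO at day 5, and at 4.33 to 6.56 in the 6 libraries of hCAR-TG day 5.

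Fitm1, the FITM protein best known from muscle, fell with TCPOBOP at both ages. Fitm2 is the widely expressed member of the family. In WT liver at day 60 Fitm1 was at 4.27, 4.28 and 6.48 FPKM with TCPOBOP, against 15.6, 11.5 and 9.29 FPKM with corn oil (log2 change -1.12 ± 0.25, limma adjusted p = 9.73e-04). At day 5 it was at 1.75, 3.15 and 1.70 FPKM with TCPOBOP, against 5.93, 4.32 and 3.60 FPKM with corn oil (-0.82 ± 0.25, limma adjusted p = 0.0149). Neither pair overlapped. The call at day 5 was lost without TCPOBOP replicate 1 or 3 or corn oil replicate 1 (-1.02 to -0.66, limma adjusted p from 0.00654 to 0.0810 over the 6 fits). With CITCO the values were 10.8, 14.0 and 24.7 FPKM at day 60, against 15.9, 16.6 and 16.6 FPKM with corn oil (-0.07 ± 0.25, limma adjusted p = 0.940), and 6.79, 5.55 and 5.82 FPKM at day 5, against 4.86, 6.50 and 7.98 FPKM with corn oil (-0.06 ± 0.25, limma adjusted p = 0.896). Markers of skeletal muscle, where Fitm1 is known to be high, summed to at most 1.12 FPKM in every library.

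Fitm2 in WT liver at day 60 was at 15.1, 14.4 and 12.9 FPKM with TCPOBOP, against 13.2, 10.8 and 10.2 FPKM with corn oil (log2 change 0.29 ± 0.09, limma adjusted p = 0.0109). The groups overlapped, and the call was lost after median-ratio rescaling (0.19, limma adjusted p = 0.0764) and without TCPOBOP replicate 1 or corn oil replicate 3 (0.22 to 0.40, limma adjusted p from 9.52e-04 to 0.0741 over the 6 fits). At day 5 it was at 14.8, 13.9 and 13.8 FPKM with TCPOBOP, against 13.1, 11.7 and 13.0 FPKM with corn oil (0.16 ± 0.09, limma adjusted p = 0.176). In hCAR-TG liver it was at 8.73, 10.6 and 10.6 FPKM with CITCO at day 60, against 9.91, 9.70 and 9.68 FPKM with corn oil (0.03 ± 0.09, limma adjusted p = 0.934). At day 5 it was at 15.9, 16.5 and 16.6 FPKM with CITCO, against 11.6, 12.9 and 14.6 FPKM with corn oil, apart from each other (0.31 ± 0.09, limma adjusted p = 0.0248). This call was lost without CITCO replicate 2 or 3 or corn oil replicate 1 (0.23 to 0.39, limma adjusted p from 0.00774 to 0.0879 over the 6 fits).

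The read file names in the labels end in a number, the suffix, whose meaning is not given in the sources used here. Within suffix 1, which held 2 TCPOBOP and all 3 corn oil libraries of WT day 60, the log2 differences were -1.11 for Plin5, -0.44 for Plin2, -1.47 for G0s2, -1.29 for Fitm1 and 1.72 for Cidec. Within suffix 2, with 1 CITCO and 3 corn oil libraries of hCAR-TG day 60, they were -0.58 for Plin5, -0.61 for Plin2 and -1.63 for G0s2. Within suffix 5, with 3 CITCO libraries and 1 corn oil library of hCAR-TG day 5, they were 0.78 for Cidec, 0.18 for Pnpla2 and 0.15 for Fitm2, and with the suffix as a factor these 3 calls were lost (limma adjusted p = 0.236, 0.353 and 0.266) and Cideb was called lower (-0.27, limma adjusted p = 0.0078). At day 5 in WT liver the TCPOBOP libraries all had suffix 4 and the corn oil libraries all had suffix 3, so suffix and treatment cannot be told apart there. Nor could the suffix be separated between the responses at day 5 or in the age difference of the TCPOBOP response. The same holds under corn oil between genotypes at day 5 and between ages in hCAR-TG liver. Corn oil groups also shared no suffix between genotypes at day 60 or between ages in WT liver. There the factor could be fitted only through other groups.

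Lists of neighbouring pathways are read against the shares of all genes called with TCPOBOP, 31.4% higher and 15.8% lower at day 60 and 24.6% higher and 11.3% lower at day 5. Of 19 PPARa target genes, 11 fell and 3 rose at day 60 and also at day 5, with median log2 changes of -0.43 and -0.45 (all tested genes 0.06 and 0.04). Ppara itself was at 12.8 ± 0.866 FPKM with TCPOBOP at day 60, against 43.6 ± 7.55 FPKM with corn oil (mean ± SD, n = 3, log2 change -1.67 ± 0.13, limma adjusted p = 7.72e-10), and at 25.9 ± 1.37 FPKM at day 5, against 52.8 ± 4.53 FPKM with corn oil (n = 3, limma adjusted p = 3.05e-06). Of 10 genes of very low density lipoprotein assembly, 6 rose and 2 fell at day 60, and 7 rose and 1 fell at day 5. Mttp, which loads triglyceride onto apolipoprotein B, was at 171 ± 4.98 FPKM with TCPOBOP at day 60, against 77.5 ± 3.95 FPKM with corn oil (n = 3, 1.13 ± 0.06, limma adjusted p = 1.62e-12).

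Other droplet genes were called at about the shares of all genes at day 60. Of 19 tested genes of the droplet surface and of droplet biogenesis outside the 10, 7 rose and 3 fell with TCPOBOP at day 60, where 31.4% of all genes rose and 15.8% fell, and 8 rose and 1 fell at day 5, where 24.6% of all genes rose and 11.3% fell. Pnpla3, a droplet protein related to adipose triglyceride lipase, was at 4.53 ± 0.425 FPKM with TCPOBOP at day 60, against 0.149 ± 0.0298 FPKM with corn oil (n = 3, log2 change 2.27 ± 0.12, limma adjusted p = 4.24e-12). Hsd17b11, a droplet-bound dehydrogenase, was at 50.7 ± 2.39 FPKM, against 79.5 ± 6.70 FPKM with corn oil (n = 3, -0.64 ± 0.10, limma adjusted p = 2.40e-05). Of 14 lipolysis and hydrolase genes, 5 rose and 6 fell at day 60 and 6 rose and 6 fell at day 5. Mgll, which finishes triglyceride breakdown, was at 18.0 ± 0.184 FPKM with TCPOBOP at day 5, against 38.5 ± 3.36 FPKM with corn oil (n = 3, -1.06 ± 0.10, limma adjusted p = 2.49e-08). Of 12 tested triglyceride synthesis genes, 3 rose and 5 fell at day 60, and 1 rose and 4 fell at day 5. Of 12 fatty acid uptake and binding genes, 5 rose and 6 fell at day 60, and 4 rose and 3 fell at day 5.

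With CITCO, 4.4% of all genes rose and 3.97% fell at day 60, and 8.27% rose and 8.82% fell at day 5. Of the 19 PPARa targets, 1 rose and 3 fell at day 60 and 2 rose and 4 fell at day 5, with median log2 changes of -0.07 and 0.08. Cyp4a10, a fatty acid hydroxylase, was at 38.1 ± 13.6 FPKM with CITCO at day 60, against 133 ± 6.27 FPKM with corn oil (n = 3, -1.85 ± 0.37, limma adjusted p = 0.00386). Of the 19 other droplet genes, 2 fell at each age. Acsl3, an acyl-CoA synthetase of nascent droplets, was at 3.78 ± 0.128 FPKM with CITCO at day 60, against 7.09 ± 1.36 FPKM with corn oil (n = 3, -0.75 ± 0.16, limma adjusted p = 0.00389). Hilpda, an inhibitor of adipose triglyceride lipase, was at 5.69 ± 0.547 FPKM with CITCO at day 5, against 8.95 ± 2.21 FPKM with corn oil (n = 3, -0.55 ± 0.14, limma adjusted p = 0.00939). Srebf1, a driver of fatty acid synthesis, was at 20.9 ± 4.50 FPKM with CITCO at day 60, against 45.9 ± 12.1 FPKM with corn oil (n = 3, -1.09 ± 0.20, limma adjusted p = 0.00142). Of the 10 lipoprotein assembly genes, 2 rose and 1 fell at day 60 and 1 rose at day 5.

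The response to CITCO differed between the ages for the perilipins. Set against its response at day 5, the response at day 60 was lower by a log2 difference of -0.57 ± 0.13 for Plin2 (limma adjusted p = 0.00889) and -0.91 ± 0.16 for Plin5 (limma adjusted p = 0.00143), 2 of the 8 genes, where 9.99% of all genes were called, 5.37% higher and 4.62% lower. The difference for Plin2 was not called with the read file suffix as a factor (-0.34, limma adjusted p = 0.134). For Cidec and G0s2 it was -1.29 ± 0.45 (limma adjusted p = 0.0787) and -1.16 ± 0.42 (limma adjusted p = 0.0959). Of the 12 fits that left out 1 library, Cidec was called in 3 and G0s2 in 1. In this comparison of ages with CITCO, limma called 5 of 11 tested clock genes higher and 3 lower. The shares of all genes were 5.37% and 4.62%. The part of the clock genes in the differences of the droplet genes was not tested. For TCPOBOP, limma called 0 of the 8 genes different between the ages (1 at an unadjusted p under 0.05), where 23.4% of all genes were called, 13.7% higher and 9.76% lower. Plin5 came nearest, at -0.41 ± 0.16 (95% interval -0.76 to -0.07, limma adjusted p = 0.0746), and was called after median-ratio rescaling (-0.46, limma adjusted p = 0.0430) and in 2 of the 12 fits that left out 1 library.

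The responses also differed between CITCO in hCAR-TG and TCPOBOP in WT liver. At day 5, 2 of the 8 genes differed, both higher with CITCO in hCAR-TG, where 33.7% of all genes were called, 11.5% higher and 22.2% lower. Plin5 differed by 0.97 ± 0.16 (limma adjusted p = 1.59e-04) and G0s2 by 1.36 ± 0.42 (limma adjusted p = 0.02). At day 60, 3 of 8 differed, where 33.8% of all genes were called, 9.77% higher and 24.1% lower. Plin5 (0.48 ± 0.16, limma adjusted p = 0.0278) and Fitm1 (1.05 ± 0.35, limma adjusted p = 0.0268) were higher and Cidec (-1.95 ± 0.45, limma adjusted p = 0.00232) was lower in the response to CITCO. The difference for Cidec was -1.34 without hCAR-TG corn oil replicate 1, and limma adjusted p was at most 0.0073 over the 12 fits that left out 1 library. The calls at day 60 for Plin5 and Fitm1 were lost in 6 and 4 of those 12 fits, at log2 differences from 0.39 to 0.57 and 0.74 to 1.30.

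Under corn oil, the genotypes differed in 1 droplet gene. At day 60 G0s2 was at 16.3, 16.1 and 28.3 FPKM in hCAR-TG liver, against 53.5, 42.9 and 39.4 FPKM in WT liver (log2 difference -1.16 ± 0.30, limma adjusted p = 0.0294), without overlap, 1 of 8 genes, where 4.9% of all genes were called, 3.05% higher and 1.85% lower. This call was lost without hCAR-TG corn oil replicate 1 or 2 and without WT corn oil replicate 1, 2 or 3, at differences from -1.41 to -1.03 and limma adjusted p from 0.0131 to 0.144. At day 5 the order was the other way, at 58.5, 85.9 and 97.1 FPKM in hCAR-TG liver, against 47.6, 35.6 and 57.7 FPKM in WT liver, apart but not called (0.76 ± 0.30, limma adjusted p = 0.122). At day 5 limma called 0 of the 8 genes (1 at an unadjusted p under 0.05), where 10.6% of all genes were called, 8.29% higher and 2.27% lower. At that age all 7 tested erythroid markers were called higher in hCAR-TG liver. They summed to 6651 to 8714 FPKM, against 2800 to 3841 FPKM in WT liver. Of 5 tested intestine markers, 3 were called higher and 0 lower. At day 60, 2 of 11 tested clock genes were called higher and 4 lower in hCAR-TG liver. The part of these genes in the genotype differences of the droplet genes was not tested. For Plin2 and Plin5 the intervals of the difference at day 60 ran from -0.39 to -0.00078 and from -0.43 to 0.06.

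Under corn oil, 5 of the 8 genes were called between the ages in each genotype. In hCAR-TG liver at day 60 against day 5, 3 of 8 rose (Plin5, Cideb and Fitm1) and 2 fell (G0s2 and Fitm2), where 71.6% of all genes were called, 24.3% higher and 47.3% lower. In WT liver, 5 of 8 rose (Plin2, Plin5, Cideb, Pnpla2 and Fitm1) and 0 fell by limma (1 at an unadjusted p under 0.05), where 70.2% of all genes were called, 25.2% higher and 44.9% lower. Fitm1 had the largest rise, at 15.9, 16.6 and 16.6 FPKM at day 60, against 4.86, 6.50 and 7.98 FPKM at day 5 in hCAR-TG liver (log2 change 1.25 ± 0.25, limma adjusted p = 1.83e-04), and at 15.6, 11.5 and 9.29 FPKM at day 60, against 5.93, 4.32 and 3.60 FPKM at day 5 in WT liver (1.22 ± 0.25, limma adjusted p = 2.39e-04). G0s2 in hCAR-TG liver fell by 1.96 ± 0.30 (limma adjusted p = 1.06e-05), with all 3 libraries of day 60 below those of day 5, while in WT liver its groups overlapped (-0.04 ± 0.30, limma adjusted p = 0.918). The difference between these 2 changes was not tested. Plin5 rose by 0.33 ± 0.12 in hCAR-TG liver (limma adjusted p = 0.0157) and 0.73 ± 0.12 in WT liver (limma adjusted p = 9.88e-06), Plin2 was at 0.16 ± 0.09 in hCAR-TG liver (limma adjusted p = 0.122) and rose by 0.48 ± 0.09 in WT liver (limma adjusted p = 9.68e-05).

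Most markers of other liver cells fell with age under corn oil, where 44.9% of all genes fell in WT and 47.3% in hCAR-TG liver. By limma, 8 of 8 Kupffer cell and 5 of 8 endothelial markers fell in each genotype. In WT and hCAR-TG liver, 7 and 6 of 8 stellate and 6 and 7 of 7 erythroid markers fell. Of 7 hepatocyte markers, 4 fell in each, and 2 and 3 rose. Their part in the age changes of the droplet genes was not tested. The age changes also depend on the scale. The median of all tested genes lay at -0.17 in hCAR-TG and -0.14 in WT liver as deposited and at 0.01 and 0.00064 after median-ratio rescaling. Rescaling gave 4480 genes higher and 4449 lower in hCAR-TG liver (2979 and 5809 as deposited) and 4365 higher and 4449 lower in WT liver (3101 and 5516 as deposited). After it, Plin2 (0.39, limma adjusted p = 0.00116) and Pnpla2 (0.39, limma adjusted p = 0.0076) were called higher in hCAR-TG liver, Fitm2 there was no longer called (-0.17, limma adjusted p = 0.0871), and the uncalled changes of Fitm2 and G0s2 in WT liver turned positive (0.03 and 0.14). Cidec was lower at day 60 in WT liver without overlap, at 0.413, 0.206 and 0.171 FPKM, against 1.67, 0.764 and 0.849 FPKM at day 5 (-0.71 ± 0.32, limma adjusted p = 0.0546). Without the 2 libraries with adipocyte transcripts its fall was called in both genotypes, at -0.79 in hCAR-TG liver (limma adjusted p = 1.05e-05) and -0.52 in WT liver (limma adjusted p = 8.33e-04). Other calls rested on single libraries: Plin5 in hCAR-TG liver was lost without corn oil replicate 1 of either age (limma adjusted p = 0.0819 at day 60 and 0.0975 at day 5), Cideb in WT liver without replicate 2 of day 5 (0.109), and Pnpla2 in WT liver without replicate 2 or 3 of either age (from 0.0020 to 0.181 over the 6 fits). With the read file suffix as a factor, the change of Pnpla2 in WT liver was 0.017 (limma adjusted p = 0.964).

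**Figure D5:**
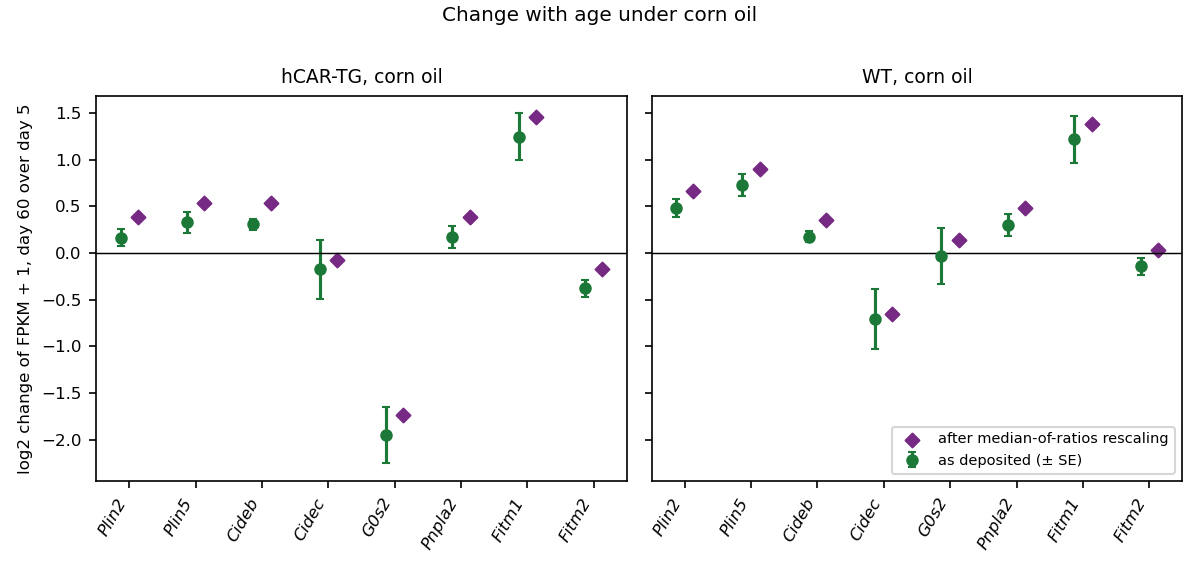
Log2 change of FPKM + 1 at day 60 over day 5 under corn oil for 8 droplet genes (x axis) in hCAR-TG (left) and WT liver (right), 3 against 3 libraries each, as deposited with its standard error (circles) and after median-ratio rescaling (diamonds). Fitm1 is at 1.25 and 1.22 as deposited, and G0s2 is at -1.96 in hCAR-TG and -0.04 in WT liver.

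Likeness of pattern is given as Pearson's r of log2(FPKM + 1) over the 24 libraries, which share groups, ages and depth, and as a description only. The most alike tested genes were Mgll (0.824) and Nsmf (0.785) for Plin2, Qsox1 (0.911) and Rtp3 (0.909) for Plin5, Fxyd1 (0.963) and Hcfc1r1 (0.934) for Cideb, and Gm11974 (0.866) and Ccrn4l (0.864) for Cidec. For G0s2 they were Chrna2 (0.933) and Inhbe (0.912), for Pnpla2 Glt1d1 (0.807) and Ctns (0.803), for Fitm1 Sirt7 (0.924) and Slc25a23 (0.912), and for Fitm2 Ncdn (0.918) and Phf5a (0.887). Among the droplet genes, Plin2 and Plin5 had an r of 0.781 over all libraries and 0.724 after the group means were taken out, and Cideb and Fitm1 of 0.83 and 0.391. Cideb and Fitm2 ran opposite over all libraries (-0.803) but not within groups (0.291).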

How the data were processed

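Liver RNA of 24 samples was extracted with RNA Bee and made into stranded Illumina TruSeq mRNA libraries, per the labels' protocols. The authors deposited 1 table of FPKM values per sample, with lower and upper interval bounds per the file headers, on mouse build mm10 per the submitters' processing notes. The aligner and quantifier are not given in the sources used here, and neither is strand use in counting. Repeated symbols were summed and 5 genes with a failed estimate were left out. Genes at 1 FPKM or more in at least 3 of 24 libraries were fitted as log2(FPKM + 1) in an 8-group model with limma 3.58.1 (R 4.3.3; trend and robust, 16 residual degrees of freedom), tested two-sided with Benjamini-Hochberg adjustment over 12282 genes and called at an adjusted p under 0.05, in 12 comparisons. FPKM are relative to each library's total, so a few very high genes can shift all others. The script was tested on simulated data. Replicate numbers did not pair libraries (correlations of deviations from -0.18 to 0.264), so no block was used. Promoter windows came from RefSeq and were searched with Python 3.11.15.

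The 10 genes and all gene lists were chosen with earlier results of these data known. Named were all 10 genes and, from each pathway list and ligand comparison, up to 3 called genes with the lowest adjusted p, of which the text prints part, Cyp2b10, and the 2 genes most like each tested droplet gene. The sequence upstream of Cidea is not reported here.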

Additional observations from a re-analysis of the deposited data

Results flagged for a closer look

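The responses to the ligands differed between ages or between receptor and ligand pairs, by a limma test of the difference, in 7 results. Between day 60 and day 5 with CITCO the log2 difference of the responses was -0.57 for Plin2 and -0.91 for Plin5. Between CITCO in hCAR-TG and TCPOBOP in WT liver at day 5 it was 0.97 for Plin5 and 1.36 for G0s2. Between the same pairs at day 60 it was 0.48 for Plin5, 1.05 for Fitm1 and -1.95 for Cidec. Of the 8 tested genes, 2 differed between the ages with CITCO, where 9.99% of all genes were called. Of 11 tested clock genes, 5 were higher and 3 lower in that comparison. Between the pairs, 2 of 8 differed at day 5 and 3 of 8 at day 60, where 33.7% and 33.8% of all genes were called. These last 2 counts are near the shares of all genes. In each comparison between receptor and ligand pairs, genotype and ligand change together and their contributions cannot be told apart. At day 5 the read file suffix could not be separated from them either. Part of the difference for Cidec at day 60 rests on hCAR-TG corn oil replicate 1, at 3.41 FPKM, and the difference was -1.34 without it.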

How the results depend on the processing

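Of 38 called changes of single droplet genes over the 12 comparisons, 20 kept their direction and their call under every alternative that could be fitted, the 3 added later left aside, and none of the 38 reversed under any alternative. Calls of single genes were lost in 4 results with rescaling, 1 with a pseudocount of 0.1, 2 with no filter, 9 with the compared libraries alone, 8 of 56 with the read file suffix as a factor, 5 of 80 and 6 of 56 without the adipocyte and pancreatic libraries, and 54 of 768 fits that left out 1 library. The totals of 56, 80 and 768 include the uncalled results, which had no call to lose, so these shares understate how often a call was lost. Reversals occurred in 23 of the 58 changes that were not called, and the cause of no shift below was tested. Replicate numbers paired no libraries (correlations of deviations from -0.18 to 0.264). With the replicate number as a block, all 96 single-gene results kept direction and call, with 7 droplet genes called with TCPOBOP at each age, 3 with CITCO at each age, and 4343 and 5763 of all genes with TCPOBOP at day 5 and day 60 and 2005 and 976 with CITCO at day 5 and day 60. Depth limits Plin4, Cidea and Cidec most, and with 3 libraries a group single libraries decide many calls.

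Median-ratio rescaling gave 1 droplet gene called in the age difference of the TCPOBOP response (Plin5). It reversed Pnpla2 with TCPOBOP at day 60 (-0.040), Fitm1 in the age difference of the CITCO response (0.029), Fitm2 between genotypes at day 5 (-0.0032), and Fitm2 and G0s2 with age in WT liver (0.028 and 0.14). A pseudocount of 0.1, with or without the filter, moved Cideb in the age difference of the TCPOBOP response to 3.1e-05, and without the filter it gave 8 droplet genes called with age in WT liver. A filter at 5 FPKM, which tests fewer genes, called 817 genes between genotypes at day 5, 5568 with age in WT liver and 5688 with age in hCAR-TG liver.

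A fit of the compared libraries alone, with fewer degrees of freedom, called 1 droplet gene and 596 of all genes with CITCO at day 5, 191 genes between genotypes at day 5, and 0 droplet genes and 230 genes between genotypes at day 60. The read file suffix as a factor could be fitted in 7 of the 12 comparisons. It gave 1 droplet gene, Cideb, lower, and 4793 genes with CITCO at day 5, 461 genes with CITCO at day 60, 1 droplet gene and 3292 genes in the age difference of the CITCO response, and 0 droplet genes and 109 genes between genotypes at day 60. With it, G0s2 with CITCO at day 5 was -0.16, Fitm2 with CITCO at day 60 -0.15, Pnpla2 in the age difference of the CITCO response 0.16, G0s2 between the responses at day 60 -0.16, Cideb and Fitm1 between genotypes at day 60 -0.033 and -0.071, and G0s2 with age in WT liver 1.16.

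The next alternatives were chosen after seeing the data. Without the 2 libraries with adipocyte transcripts, 829 genes were called between genotypes at day 5, and 0 droplet genes and 313 genes at day 60. Cidec with CITCO at day 60 was then 0.30, Cideb in the age difference of the TCPOBOP response 0.0019, Pnpla2 between genotypes at day 5 0.038 and Cidec between genotypes at day 60 -0.027. Without the 3 libraries with pancreatic transcripts, 1 droplet gene was called with CITCO at day 5, 3 with age in WT liver, 2532 genes between the responses at day 5 and 785 between genotypes at day 5. Cideb and G0s2 in the age difference of the TCPOBOP response were then 0.067 and 0.11, Fitm1 in that of the CITCO response 0.066, and Cidec and Fitm2 between genotypes at day 5 -0.058 and -0.0045.

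Leaving out 1 library at a time, droplet genes called ran from 4 to 6 with TCPOBOP at day 5, from 0 to 3 with CITCO at day 5, from 0 to 1 in the age difference of the TCPOBOP response, from 1 to 3 between the responses at day 60, from 0 to 1 between genotypes at day 60 and from 3 to 6 with age in WT liver. All genes called ran from 1147 to 2633 with CITCO at day 5, from 814 to 1372 in the age difference of the CITCO response, from 801 to 1745 between genotypes at day 5 and from 336 to 742 between genotypes at day 60. Among uncalled changes, those that reversed were, with TCPOBOP, Pnpla2 at day 60 (-0.072 to 0.18), and, with CITCO, Cidec (-0.62 to 0.30), Fitm1 (-0.38 to 0.18) and Fitm2 (-0.018 to 0.11) at day 60 and Fitm1 (-0.22 to 0.086), G0s2 (-0.072 to 0.29) and Plin2 (-0.12 to 0.048) at day 5. In the age differences of the responses, Cideb (-0.057 to 0.055) and G0s2 (-0.35 to 0.14) did so for TCPOBOP and Fitm1 (-0.32 to 0.24) for CITCO, and between the responses at day 5 Cideb (-0.019 to 0.093). Between genotypes these were Cideb (-0.11 to 0.0039), Cidec (-0.058 to 0.24), Fitm2 (-0.034 to 0.12) and Pnpla2 (-0.20 to 0.038) at day 5 and Cidec (-0.027 to 0.90) at day 60. With age they were Cidec in hCAR-TG liver (-0.79 to 0.14) and G0s2 in WT liver (-0.22 to 0.12).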
